A study of Mus musculus with 31 samples.

Results

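Macrophage and complement genes were followed in 3 mouse fat depots during cold exposure. The set holds 33 symbols chosen by name for the roles that order the results below, from the C1q subunits of complement to genes of lipid-handling macrophages. Rows with counts were found for 27 of them, out of 16653 symbols with counts in the tables. Itgam, Ms4a7, Clec10a, Cd163, Cd68 and Ctss were not analysed here. RNA-seq libraries, each from 1 µg of total RNA, came from male C57BL/6J mice 8 weeks old. The depots were interscapular brown fat (iBAT), a heat-producing tissue, inguinal white fat (iWAT), a subcutaneous pad, and epididymal white fat (eWAT), an abdominal pad. All mice first spent 8 days at thermoneutrality, the range in which a mouse needs no extra heat production. Day 0 animals were killed then, and the others after 2 or 4 days at 4 °C. Libraries numbered 3, 4 and 3 (days 0, 2 and 4) for iBAT, 4, 3 and 5 for iWAT, and 3 on each day for eWAT.

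Macrophages are phagocytes that live in fat beside the adipocytes, where they clear dying cells, take up lipid and answer to local signals. C1q, made of A, B and C chains, is the recognition molecule of the classical complement pathway, and macrophages are its main source in many tissues. Fc receptors bind antibody-coated particles and signal through adaptor proteins that carry activation motifs, and the receptor encoded by Csf1r supports macrophage survival. The libraries are of whole tissue, so fewer cells of a type and less RNA per cell cannot be told apart.

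Promoter windows are shown for 4 members. C1qb and C1qc lie next to each other on chromosome 4 with C1qa, and their products form 1 molecule. Mrc1 and Ly86 differed between depots at day 0. Each window is the 250 bases before an annotated transcript start, written 5′ to 3′ on the gene's strand, from RefSeq on GRCm38.p6. The positions are chr4:136886201-136886450 (minus strand), chr4:136892915-136893164 (minus), chr2:14229164-14229413 (plus) and chr13:37345095-37345344 (plus). The C1qc window reaches into the gene, whose outermost annotated 5′ end is at 136892936. Capitals mark GAGGAA or its reverse complement TTCCTC, the core of the purine-rich box bound by PU.1, a transcription factor of myeloid cells.
C1qb: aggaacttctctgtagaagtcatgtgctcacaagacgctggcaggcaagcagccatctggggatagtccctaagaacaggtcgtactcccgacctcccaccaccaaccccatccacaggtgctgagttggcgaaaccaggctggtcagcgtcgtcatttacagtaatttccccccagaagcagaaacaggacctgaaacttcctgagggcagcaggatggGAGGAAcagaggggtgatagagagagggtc
C1qc: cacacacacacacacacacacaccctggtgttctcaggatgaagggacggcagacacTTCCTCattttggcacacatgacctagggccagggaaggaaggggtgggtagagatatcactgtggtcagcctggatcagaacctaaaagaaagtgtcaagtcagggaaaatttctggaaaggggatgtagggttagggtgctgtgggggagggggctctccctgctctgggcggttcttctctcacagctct
Mrc1: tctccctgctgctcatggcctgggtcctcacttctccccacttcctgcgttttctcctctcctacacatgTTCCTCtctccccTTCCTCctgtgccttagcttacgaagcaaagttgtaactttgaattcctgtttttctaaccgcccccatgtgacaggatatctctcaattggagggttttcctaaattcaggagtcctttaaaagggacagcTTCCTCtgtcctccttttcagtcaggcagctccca
Ly86: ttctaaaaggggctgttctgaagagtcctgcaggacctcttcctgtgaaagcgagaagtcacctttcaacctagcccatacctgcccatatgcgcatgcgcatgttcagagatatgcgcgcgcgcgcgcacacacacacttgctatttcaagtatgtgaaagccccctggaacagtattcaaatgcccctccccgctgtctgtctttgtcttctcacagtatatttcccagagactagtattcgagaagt
The match lies 30 bases before the start in C1qb and 193 in C1qc, Mrc1 has matches at 180, 167 and 35, and Ly86 has 0. Windows were matched for 21 members with 27 starts, and 13 of the 27 (48.1%) held the letters on either strand, against 23.3% of 32851 windows of the same length over all genes. A match is a description of letters and no measurement of binding.

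An iBAT library held between 1.58 and 3.76 M counts, an iWAT library between 1.5 and 5.53 M, and an eWAT library between 3.19 and 4.03 M. In iBAT548 and iBAT539, 14 and 8 of the 27 members had no count, against at most 2 in any other library. These 2 libraries are short of low counts in general, with 57 and 159 features at a count of 1 against at least 1014 in the other iBAT libraries. A missing value there is not shown to be a true 0. Replicates also spread along a main axis of expression within groups. Each library was given a score on the axis found in the other depots, computed without the members. Values were centred on the mean of the depot, so differences between days can enter the score. Pooled over the depots, scores left a gap between 5.05 and 27.2. Above the gap lay iBAT535, iBAT539 and iBAT548, iWAT516, iWAT517, iWAT518, iWAT550, iWAT551 and iWAT553, and eWAT518, eWAT532 and eWAT538. What this axis stands for was not tested. Brown adipocyte markers summed to at least 8649 CPM (counts scaled to a common library total) in every iBAT library and to at most 399 CPM in eWAT.

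Apoe, which encodes a carrier of lipid that adipocytes as well as macrophages make, took 80.7% of the members' counts. Per kilobase of transcript, its day 0 mean was 2420 CPM for eWAT, 1920 for iWAT and 1350 for iBAT, and no other member's day 0 mean passed 120 CPM per kilobase. The other 26 members are therefore summed without it. At day 0 this sum was 875 to 1150 CPM for iWAT, 438 to 684 CPM for eWAT and 186 to 330 CPM for iBAT, with each depot scaled on its own. With all libraries scaled together the sums were 809 to 1090 CPM for iWAT, 390 to 616 CPM for eWAT and 239 to 417 CPM for iBAT, so that iWAT stayed apart while eWAT and iBAT overlapped. Lyz2, the macrophage lysozyme, had 439 counts over all libraries against 42223 for its near-identical neighbour Lyz1, so its values are uncertain.

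At thermoneutrality most members had lower estimates in brown fat than in either white depot. Of 27 tested, 22 had lower estimates in iBAT than in iWAT (median log2 difference -1.17, against -0.18 over all genes), and 5 passed the edgeR quasi-likelihood test at an adjusted p under 0.05, all lower in iBAT. Over all genes 9.77% were called lower and 8.12% higher in that comparison. The 5 were Ly86, which encodes the secreted MD-1 protein that partners a Toll-like receptor relative on B cells and myeloid cells, Mpeg1 (perforin-2, a pore former against bacteria), Aif1 (the actin-binding protein IBA1), Itgax (the integrin CD11c, shared with dendritic cells) and Cx3cr1, the fractalkine receptor.

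Ly86 read 5.71, 11.5 and 6.82 CPM in the iBAT libraries and 70.0, 120, 102 and 60.8 CPM in iWAT. Every iWAT library stood above every iBAT library (log2 difference -3.45, SE 0.77, adjusted p = 0.00226). Aif1 was at 7.34, 30.6 and 12.5 CPM in iBAT and at 181, 58.5, 89.6 and 91.6 CPM in iWAT (-2.64, SE 0.84, adjusted p = 0.0296). The groups of Aif1 also stayed apart. Itgax measured 19.2, 9.39 and 6.82 CPM against 70.9, 34.1, 39.2 and 29.5 CPM (-1.89, SE 0.58, adjusted p = 0.023), and Cx3cr1 1.63, 4.54 and 2.08 CPM against 37.4, 15.1, 20.8 and 13.3 CPM (-2.95, SE 0.85, adjusted p = 0.0156). Neither gene's groups overlapped. Mpeg1, at 5.71, 45.1 and 6.53 CPM in iBAT and 336, 180, 338 and 12.7 CPM in iWAT, did overlap, because iWAT522 was low (-3.49, SE 1.1, adjusted p = 0.0281). Members apart from these 5 whose libraries did not overlap were Tyrobp, Csf1r and Folr2, giving 7 of 27 below, where 15.1% of all genes were below without overlap.

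**Figure D1:**
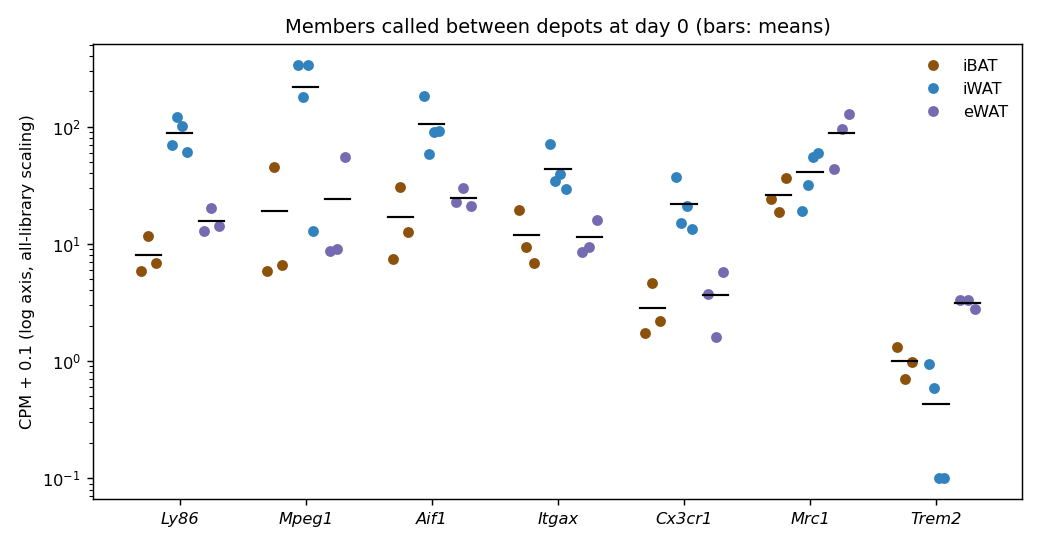
Levels of the 7 members called in any comparison of depots at day 0, in CPM plus 0.1 on a log axis, 1 point per library (iBAT 3, iWAT 4, eWAT 3) with bars at the means. Ly86, Aif1, Itgax and Cx3cr1 are highest in all 4 iWAT libraries, Mpeg1 is high in 3 of them, and Mrc1 is highest in the mean of eWAT.

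The Ly86 call held in all 15 alternatives run, with an adjusted p of at most 0.0209. Calls of Cx3cr1 and Aif1 ended without iBAT516 (adjusted p = 0.0841 and 0.141), without iBAT518 (0.08 and 0.123) and without iWAT516 (0.0536 and 0.085). The Itgax call ended without iBAT517 (0.0953), iBAT518 (0.127) or iWAT516 (0.0855), and that of Mpeg1 without iBAT516 or iBAT518 (0.13 each), iWAT516 (0.0616) or iWAT518 (0.055), in limma voom (0.0619) and with no filter (0.0537). The count of 5 became 2 without iBAT516, 1 without iBAT518, 1 without iWAT516 and 10 in DESeq2.

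Not every macrophage gene followed this order. Adgre1, which encodes F4/80, the classical surface marker of mouse macrophages, averaged 11.0 ± 6.72 CPM (SD, n = 3) in iBAT, 7.32 ± 2.61 (n = 4) in iWAT and 16.4 ± 8.58 (n = 3) in eWAT, with overlapping libraries and no call. Mrc1, the mannose receptor CD206 of tissue-resident macrophages, was lower in iBAT than in eWAT. It read 24.1, 18.5 and 36.2 CPM in iBAT, 18.8, 31.9, 54.6 and 59.1 CPM in iWAT and 43.8, 95.3 and 127 CPM in eWAT. The iBAT and eWAT libraries did not overlap (log2 difference -1.75, SE 0.55, adjusted p = 0.0407). This was the 1 call among 27 members in that comparison, where 5.21% of all genes were called lower and 5.07% higher, and 25 members had negative estimates (median -0.59, against -0.18). Csf1r, Ly86, Trem2 and Apoe were also below in all iBAT libraries, giving 5 without overlap, where 19.6% of all genes lay below. Mrc1 was not past the threshold without iBAT516 (0.138), iBAT517 (0.166), iBAT518 (0.0646), eWAT517 (0.0895) or eWAT518 (0.16), with no filter (0.056) or with the label number as a block (0.0602).

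Between the white depots 3 members were higher in iWAT and 1 in eWAT, where 5.02% and 2.8% of all genes were called. Ly86 at 12.8, 20 and 14.2 CPM, Itgax at 8.41, 9.38 and 15.9 CPM and Cx3cr1 at 3.60, 1.49 and 5.63 CPM in eWAT were all below each iWAT library, as was Aif1, giving 4 above without overlap and 1 below, where 10.1% and 9.18% of all genes were. Their log2 differences of iWAT over eWAT were 2.49 (SE 0.73, adjusted p = 0.0316), 1.95 (SE 0.57, 0.0332) and 2.59 (SE 0.82, 0.0484). Trem2, a lipid-sensing receptor of macrophages in obese fat, was lower in iWAT, with 0.844, 0.487, 0 and 0 CPM against 3.20, 3.20 and 2.69 CPM (-2.91, SE 0.91, adjusted p = 0.0494). The Trem2 difference rests on few counts, since the gene has 211 over all 31 libraries. The count of 4 fell to 0 without iWAT518, eWAT516 or eWAT517, to 1 without iWAT517, to 2 without iWAT516 or eWAT518, and was 6 in DESeq2. Ly86 then ended at an adjusted p of 0.0632 to 0.145, Itgax at 0.0529 to 0.163, Cx3cr1 at 0.0641 to 0.203 and Trem2 at 0.077 to 0.125 in the fits with 1 library left out that lost them. With the label number as a block all 4 calls ended (Ly86 at an adjusted p of 0.0668, Itgax at 0.0707, Cx3cr1 at 0.05 and Trem2 at 0.145), and Mpeg1, higher in iWAT, passed instead at 0.049.

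Lymphocyte, dendritic cell and MHC class II genes were also mostly called higher in iWAT at day 0. All 14 lymphocyte markers tested were called higher in iWAT than in iBAT (median log2 difference of iBAT over iWAT -6.95) and than in eWAT (7.06). Their sum was 2180 to 4414 CPM in the day 0 iWAT libraries, 9.8 to 30.1 CPM in iBAT and 16.0 to 36.6 CPM in eWAT. Of 8 dendritic cell markers 6 were called lower in iBAT than in iWAT and 5 higher in iWAT than in eWAT, and of 7 MHC class II genes 5 and 4. Over all genes 9.77% were called lower in iBAT than in iWAT, and 5.02% higher in iWAT than in eWAT. The part of these immune cells in the differences of Ly86, Itgax, Aif1, Mpeg1 and Cx3cr1 was not tested.

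With cold, the members' estimates were mostly positive in eWAT at day 4. At that time 26 of 27 members had higher estimates than at day 0, with a median log2 change of 1.04 against -0.01 over all 10043 genes tested. None passed the adjusted test, in edgeR, DESeq2 or limma voom, and 4 members had an unadjusted p under 0.05 in edgeR. All 3 day 4 libraries lay above all 3 day 0 libraries for 7 members, the C1q genes C1qa, C1qb and C1qc with Fcgr3, Fcer1g, Msr1 and Folr2, where 4.82% of all genes did so. Over all genes 0% were called in either direction in edgeR.

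C1qa measured 25, 31.9 and 48.1 CPM at day 0, 15.4, 33.6 and 32.8 CPM at day 2, and 203, 72.7 and 115 CPM at day 4. The 3 day 4 libraries were above all 6 earlier ones. The log2 change of C1qa from day 0 to day 4 was 1.90 (SE 0.50, adjusted p = 1). C1qb read 38.7, 75.9 and 37.0 CPM at day 0, 21.5, 47.9 and 56.2 CPM at day 2, and 266, 140 and 142 CPM at day 4 (1.85, SE 0.50, adjusted p = 1), again with day 4 above all earlier libraries. C1qc had much lower levels, 4.29 ± 2.81 CPM at day 0 and 10.6 ± 2.75 CPM at day 4 (SD, n = 3 each), with a change of 1.29 (SE 0.58, adjusted p = 1). Per kilobase of transcript, the day 4 means were 112 CPM for C1qa, 151 for C1qb and 7.91 for C1qc. How reads were counted is not given, so whether the transcripts of the 3 chains differ as much was not tested.

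**Figure D2:**
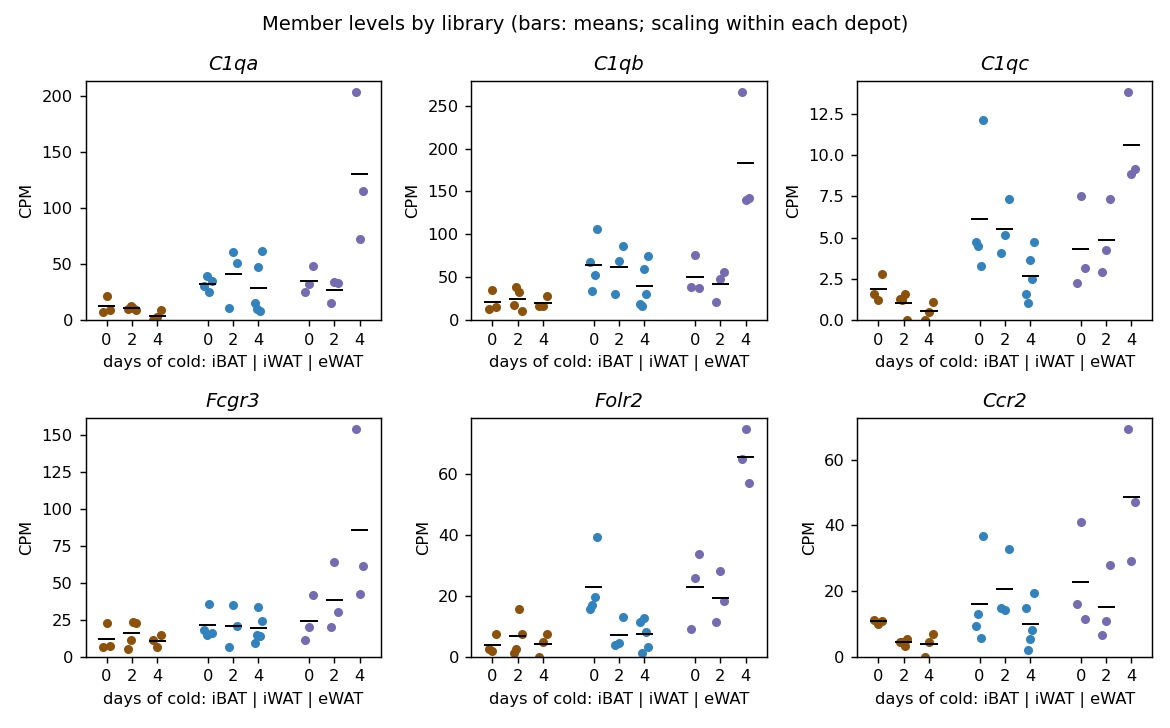
Levels of 6 members in CPM (scaled within each depot), 1 point per library and bars at group means, at 0, 2 and 4 days of cold in iBAT, iWAT and eWAT. The C1qa and C1qb points of eWAT at day 4 lie above all other eWAT points, and those of iBAT stay lowest on average.

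Among receptors, Fcgr3, which encodes the low-affinity IgG receptor CD16, was at 11.5, 19.9 and 41.6 CPM at day 0 and 154, 42.1 and 61.5 CPM at day 4 (log2 change 1.82, SE 0.68, adjusted p = 1). The highest day 0 library nearly met the lowest day 4 library, and the groups did not overlap. Folr2, a folate receptor of resident macrophages, read 9, 25.8 and 33.6 CPM at day 0, 11.3, 28.0 and 18.2 CPM at day 2 and 64.7, 74.6 and 57.0 CPM at day 4 (1.52 against day 0, SE 0.53, adjusted p = 1), with day 4 above every earlier library. Fcer1g, the shared signalling chain of Fc receptors, averaged 44.6 ± 22.3 CPM at day 0 and 102 ± 33.1 CPM at day 4, and the scavenger receptor gene Msr1 5.87 ± 2.28 and 17.2 ± 7.79 CPM (SD, n = 3 each). Itgax was the 1 member with a negative day 4 estimate (-0.21, SE 0.49).

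The remaining members had overlapping libraries. Their estimates ran from 0.03 for Clec7a, the beta-glucan receptor Dectin-1, to 1.5 for Cx3cr1, apart from Itgax. Csf1r averaged 38.5 ± 18 CPM at day 0 and 79.4 ± 31.7 CPM at day 4 (1.04), and Adgre1 18.6 ± 10.1 and 33.8 ± 14.0 CPM (0.86). Ccr2, the receptor that draws monocytes out of the blood, averaged 22.9 ± 15.9 and 48.5 ± 20.1 CPM (1.08). Apoe was nearly level at 3810 ± 2070 and 4180 ± 1440 CPM (0.13). Summed without Apoe, the members came to 438, 678 and 684 CPM at day 0, 355, 773 and 637 CPM at day 2 and 1790, 935 and 1210 CPM at day 4. The day 4 sums did not overlap with the earlier ones.

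**Figure D3:**
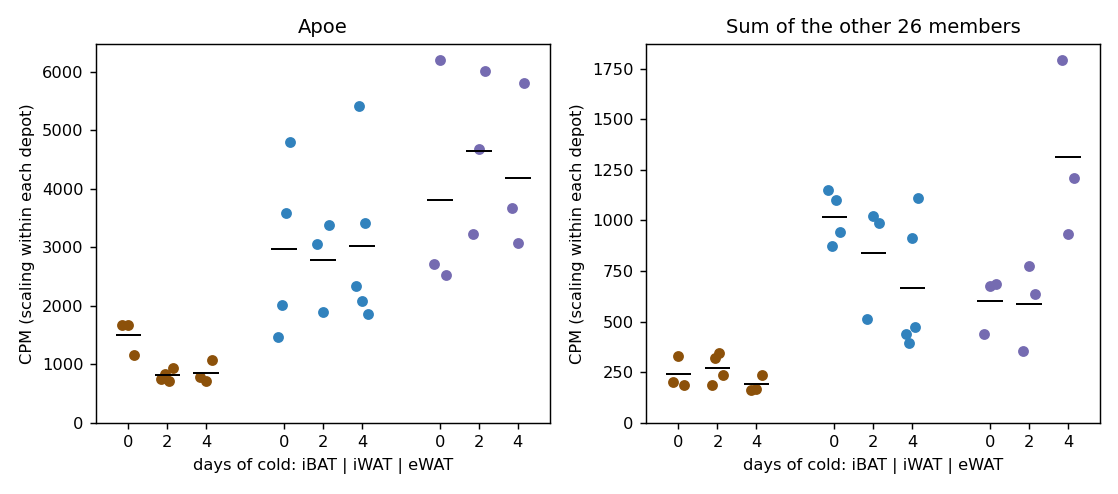
Apoe (left) and the sum of the other 26 members (right) in CPM scaled within each depot, 1 point per library with bars at group means, by days of cold. The 3 eWAT sums at day 4 lie above the 6 earlier eWAT sums, and the iBAT Apoe points at days 2 and 4 lie below those at day 0.

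Against day 2, 24 of 27 eWAT members had positive day 4 estimates (median 1.13, all genes -0.01), again with 0 calls in edgeR, DESeq2 and limma voom and with 7 at an unadjusted p under 0.05. The day 4 libraries were all above the day 2 libraries for 9 members, where 3.76% of all genes were. These were C1qa (2.25, SE 0.51), C1qb (2.13, SE 0.51), Folr2 (1.77, SE 0.53), C1qc, Ccr2, Adgre1, Aif1, Ly86 and Clec7a, each with an adjusted p of 0.823. The 2 day 4 comparisons share the day 4 libraries. At day 2 itself, 11 estimates were positive and 16 negative against day 0 (median -0.14, all genes 0.01), 0 members had an unadjusted p under 0.05 and 0 were called by any of the 3 tools.

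Library score and other cell types varied beside these eWAT values. The 3 day 4 libraries, 2 of 3 day 0 libraries and 1 of 3 day 2 libraries lay below the score gap. Ccr2 and Aif1, which did not overlap between days 4 and 2, also differed by side. They read 6.69 to 11.4 and 12.4 to 24.5 CPM above the gap, and 16.2 to 69.3 and 25.7 to 71.6 CPM below it. C1qa, C1qb, C1qc, Folr2, Adgre1, Ly86 and Clec7a overlapped between the sides. With only the day 4 and day 0 libraries below the gap, 25 of 27 members had positive day 4 estimates (median 1.07). With the score as a covariate 26 did (1.13). Without eWAT548, the library with the highest values of C1qa, C1qb and Fcgr3, the median was 0.76. Mast cell markers also had higher estimates at day 4, 4 of 4 tested (median 1.68), and dendritic cell markers 5 of 6 (1.05). The lymphocyte marker sum was 13.7 to 51.8 CPM at day 4 and 16.0 to 36.6 CPM at day 0. Epididymis and testis markers reached 33270 CPM in eWAT551, 23207 in eWAT516 and 39185 in eWAT532 and at most 2547 CPM in the other 6. Without eWAT551 the median was 1.07. The part of mast and dendritic cells was not tested.

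**Figure D4:**
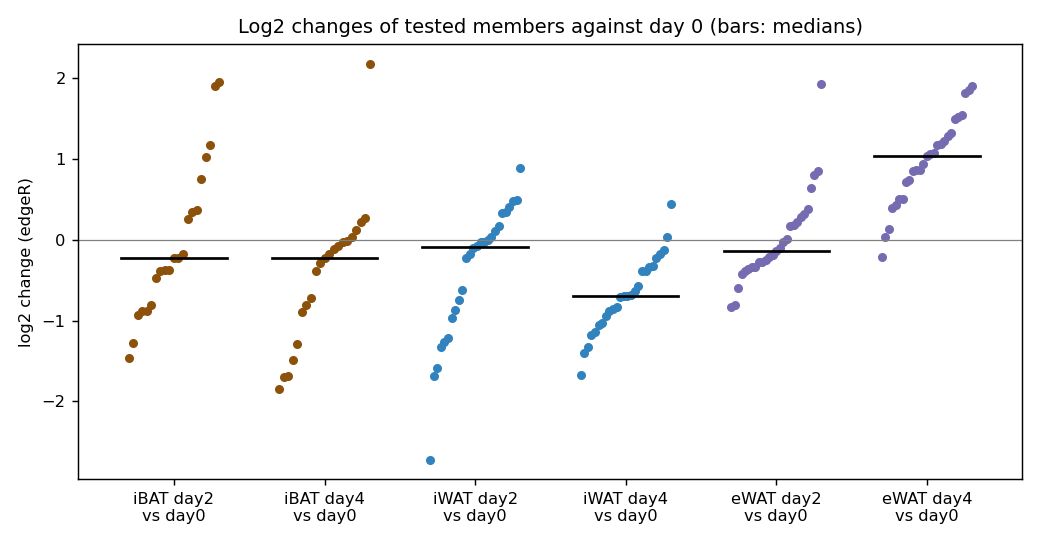
Log2 changes (edgeR) of the tested members against day 0 in each depot at days 2 and 4, sorted within each column, with bars at the medians. The eWAT day 4 column lies above 0 for 26 of 27 members (median 1.04) and the iWAT day 4 column below 0 for 24 of 26 (median -0.70).

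In iWAT the estimates at day 4 pointed down. Of 26 members tested, 24 were negative against day 0 (median -0.70, all genes -0.01), 0 were called by edgeR, DESeq2 or limma voom, where edgeR called 0% of all genes in either direction, and 5 had an unadjusted p under 0.05. Folr2 read 15.5, 16.9, 19.6 and 39.3 CPM at day 0, 3.73, 4.58 and 12.9 CPM at day 2 and 11.4, 1.27, 12.8, 8.28 and 3.27 CPM at day 4. All day 2 and day 4 libraries were below all day 0 libraries. The log2 changes were -1.68 (SE 0.71, adjusted p = 0.461) at day 2 and -1.67 (SE 0.61, adjusted p = 0.504) at day 4. Folr2 was the 1 tested member without overlap at day 4, where 1.09% of all genes lay below without overlap. Clec7a averaged 5.63 ± 3.63 CPM (n = 4) at day 0 and 2.06 ± 1.19 CPM (n = 5) at day 4 (-1.40, SE 0.58, adjusted p = 0.556).

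Cx3cr1 in iWAT measured 39.5, 16.3, 22.8 and 14.8 CPM at day 0, 9.01, 8.59 and 11.4 CPM at day 2, and 6.00, 4.30, 12.2, 8.28 and 15.6 CPM at day 4. Day 2 lay below day 0 without overlap (-1.27, SE 0.51, adjusted p = 0.44), and at day 4 iWAT555 overlapped (-1.32, SE 0.44, adjusted p = 0.491). At day 2 as a whole, 17 of 26 estimates were negative (median -0.08, the same as over all genes), 0 members were called by the 3 tools with 4 at an unadjusted p under 0.05, and Cx3cr1 and Folr2 were the 2 without overlap below, where 4.32% of genes were. Gpnmb, a lysosomal glycoprotein of lipid-laden macrophages, had the largest day 2 estimate, 1.32 ± 0.36 CPM (n = 3) against 8.88 ± 7.02 CPM (n = 4) at day 0 (-2.72, SE 0.94, adjusted p = 0.388), and the estimate was -0.72 with the library score as a covariate. Gpnmb followed the library score: the 6 iWAT libraries above the gap read 4.97 to 17.7 CPM and the 6 below it 0.656 to 3.57 CPM, and all 3 day 2 libraries lay below it. Ccr2 was the other way round, at 2.02 to 12.9 CPM above the gap and 14.3 to 36.7 CPM below it.

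Sums of the iWAT members without Apoe were 875 to 1150 CPM at day 0, 513, 1020 and 986 CPM at day 2 and 441, 393, 911, 473 and 1110 CPM at day 4. Day 4 overlapped day 0 through iWAT551 and iWAT555. Lymphocyte markers summed to 1671, 1293, 3038, 993 and 4575 CPM in the same 5 day 4 libraries, highest in those same 2. Dendritic cell markers summed to 403 to 740 CPM at day 0 and 112 to 556 CPM at day 4, with 8 of 8 estimates negative (median -0.88). Brown adipocyte markers summed to 152 to 1770 CPM and 1107 to 9983 CPM, with 6 of 6 positive (median 2.58). None of these 14 genes was called in edgeR. The part of these cell types in the iWAT change was not tested. On the high side of the score gap alone, 20 of 22 members had negative day 4 estimates (median -0.69). From day 2 to day 4, 19 of 26 were negative (median -0.36, all genes 0.07), 0 were called by the 3 tools with 2 at an unadjusted p under 0.05, and Tyrobp, an adaptor with an activation motif, was the 1 below without overlap, where 2.2% of genes were.

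In brown fat 21 members could be tested, and C1qc, Cx3cr1, Cd14, Clec7a, Msr1 and Lyz2 had too few counts. At day 2, 13 of 21 estimates were negative (median -0.22, all genes 0.01), a split that turned to 9 of 21 (0.11) with the score as a covariate. edgeR called 0 members, with 3 at an unadjusted p under 0.05, limma voom 0 and DESeq2 1, where edgeR called 0.133% of all genes higher and 0.0242% lower. The member DESeq2 called was Apoe (adjusted p = 0.0446). Apoe read 1670, 1670 and 1160 CPM at day 0, 749, 838, 720 and 940 CPM at day 2 and 776, 708 and 1080 CPM at day 4. All later libraries lay below all day 0 libraries, with edgeR log2 changes of -0.88 (SE 0.31, adjusted p = 0.284) at day 2 and -0.81 (SE 0.34, adjusted p = 0.676) at day 4. Ccr2 was the other member below at day 2 without overlap, at 10.7 ± 0.61 CPM (n = 3) and 4.41 ± 0.966 CPM (n = 4), where 8.84% of all genes lay below. Skeletal muscle markers came to 19199 to 60172 CPM at day 0 and 6890 to 11477 CPM at day 2. At day 4 they came to 24069 CPM in iBAT548, 15136 in iBAT550 and 4288 in iBAT555. The day 2 muscle sums lay below all day 0 sums, and iBAT548 lay within the day 0 range. In iBAT518 the muscle sum was 60172 CPM and Apoe was at 1160 CPM. The part of muscle in the Apoe and Ccr2 values was not tested.

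Gpnmb had the largest estimate at day 2 in iBAT, with 2.89, 3.83 and 1.39 CPM at day 0 and 3.12, 12.9, 17.1 and 9.21 CPM at day 2 (1.96, SE 0.73, adjusted p = 0.3), followed by Trem2 (1.90, SE 1.02, adjusted p = 0.467). iBAT532 kept the Gpnmb groups from separating. Gpnmb passed the filter on low counts only with the help of the day 2 libraries iBAT534, iBAT535 and iBAT539 (31, 43 and 15 counts). At day 0 it had 9, 16 and 6 counts, so its positive day 2 estimate follows in part from that filter. The Gpnmb estimate was 1.44 with the library score as a covariate and 1.61 in the libraries below the score gap alone. At day 4, 16 of 21 estimates were negative (median -0.23, all genes -0.04), 0 were called by the 3 tools and 1, Apoe, had an unadjusted p under 0.05. Csf1r, Ccr2 and Apoe lay below day 0 and Trem2 above it without overlap, where 10.8% and 8.46% of all genes did. Trem2 passed the filter on low counts only through libraries after cold, iBAT532, iBAT539 and iBAT548 (6, 7 and 26 counts). At day 0 it had 2 or 3 counts, so its positive estimates and its separation follow in part from that filter. Trem2 at day 4 had 7.65 CPM in iBAT548 and 0.987 and 1.12 CPM in the other 2 libraries, against 0.479 to 0.965 CPM at day 0 (2.18, SE 1.04, adjusted p = 0.725). Without iBAT548 the estimate was 0.57. Csf1r had 0 CPM in iBAT548, 5.43 in iBAT550 and 2.98 in iBAT555, against 8.78 to 10.5 CPM at day 0 (-1.84, SE 1.2, adjusted p = 0.827), and the estimate was -1.22 without iBAT548. From day 2 to day 4, 15 of 21 were negative (median -0.21, all genes -0.07), with 0 calls by the 3 tools and 1 member at an unadjusted p under 0.05. C1qa was the 1 member below without overlap (2.96, 8.57 and 0 CPM at day 4, 8.59 to 12.9 CPM at day 2), where 2.36% of genes were. The 0 is a missing value in iBAT548 and the 8.59 CPM is from iBAT539, the 2 libraries short of low counts. The separation, 8.57 against 8.59 CPM, is therefore uncertain. Without iBAT548 and iBAT539, 12 of 21 tested members were negative at day 2 against day 0 (median -0.14), 14 of 21 at day 4 against day 0 (median -0.36) and 13 of 21 at day 4 against day 2 (median -0.26), with 0 calls in edgeR. Gpnmb at day 2 was then at 2.05 and Apoe at day 4 at -0.74, and Trem2 did not pass the filter on low counts. Lgmn, a lysosomal protease gene, had the highest level per kilobase of the members other than Apoe in iBAT at day 2 (43.6 CPM per kilobase). It averaged 71.8 ± 29.5 CPM then (SD, n = 4) and 35.1 ± 19.5 CPM at day 0 (n = 3).

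The depots' day 4 changes were compared directly. Relative to eWAT, 26 of 27 members had lower day 4 changes in iWAT (median difference -1.64, all genes 0.02) and 26 of 27 in iBAT (-1.68, all genes -0.26). edgeR, DESeq2 and limma voom called 0 members in either comparison, edgeR called 0% of all genes, and 8 and 10 members had an unadjusted p under 0.05. C1qb differed by -2.57 (SE 0.78, adjusted p = 0.598) between iWAT and eWAT and by -2.01 (SE 0.85, adjusted p = 1) between iBAT and eWAT, and C1qa by -2.12 (SE 1.00, adjusted p = 1) and -3.67 (SE 1.16, adjusted p = 0.83). The C1qa difference between iBAT and eWAT includes the missing value of iBAT548, read as 0, and ran from -5.22 to -2.98 over the alternatives. Folr2 differed by -3.21 (SE 1.14, adjusted p = 0.975) between iWAT and eWAT. Both comparisons share the eWAT libraries. Between iBAT and iWAT 14 differences were positive and 13 negative (median 0.03, all genes -0.28), with 0 calls by the 3 tools and 0 at an unadjusted p under 0.05.

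Other complement genes showed depot differences at day 0. Of 16 tested, 7 were called lower in iBAT than in iWAT, among them Cd55, which shields host cells from complement (-2.09, SE 0.48, adjusted p = 0.00282), Serping1, the C1 inhibitor (-2.30, SE 0.54, adjusted p = 0.0036), and C1ra, a protease of the C1 complex (-1.75, SE 0.49, adjusted p = 0.0134). Against eWAT, C6 of the membrane attack complex (-6.99), Serping1 (-2.58) and C2 (-2.32) were lower in iBAT, and in iWAT C7 (-5.35) and C6 (-3.35) were lower and Cd55 (1.91) higher than in eWAT. Over all genes 9.77% were called lower in iBAT than in iWAT and 5.21% lower in iBAT than in eWAT. In iWAT against eWAT 5.02% were called higher and 2.8% lower. In eWAT at day 4, 11 of 16 of these complement genes had positive estimates (median 0.63) and 0 were called. The list summed to 18430 CPM in the day 4 library eWAT551 and to at most 5794 CPM in the other eWAT libraries. In eWAT551 epididymis and testis markers reached 33270 CPM, and their part in this list was not tested. C3ar1, the receptor for the C3a fragment, averaged 21.9 ± 3.60 CPM at day 0 and 55.5 ± 15.1 CPM at day 4 (SD, n = 3 each; 1.34, adjusted p = 1), and C6 70.1 ± 37.1 and 16.8 ± 2.46 CPM (-2.06, SE 0.50, adjusted p = 1).

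Of the other genes of monocytes and macrophages, 18 of 20 were positive in eWAT at day 4 (median 0.56). Of these, 6 did not overlap, where 4.82% of all genes lay above without overlap. In iWAT 19 of 21 were negative (median -0.66), and 0 were called in each depot. Lyve1, a hyaluronan receptor of lymphatic vessels and perivascular macrophages, averaged 12.6 ± 1.97 CPM at day 0 and 34.4 ± 10.5 CPM at day 4 in eWAT (SD, n = 3 each; 1.45, SE 0.54, adjusted p = 1). At day 0, 14 of 21 were called lower in iBAT than in iWAT, led by Laptm5 (-4.23), a lysosomal protein of blood cells in general, Timd4 (-6.39), a receptor for dying cells, and Ncf4 (-4.44), a subunit of the phagocyte oxidase. The same 3 were higher in iWAT than in eWAT (3.17, 5.12 and 3.78). Over all genes 9.77% were called lower in iBAT than in iWAT, and 5.02% higher in iWAT than in eWAT.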

How the data were processed

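Counts per RefSeq transcript accession were deposited by the authors, 1 table per depot; per the submitters' processing notes, cutadapt and BWA were used with build mm10. How reads were counted, with which annotation, by strand or not, and with or without duplicates is not given in the sources used here, so a gene's reads cannot be separated from those of an overlapping or antisense neighbour. The deposited counts hold no 0, and a missing value was read as 0. Accessions were matched to RefSeq symbols (GRCm38.p6; 17030 of 17334) and, for 105, GENCODE M21. Cd84 has 2 rows, and the row with more counts was used.

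The counts were fitted with edgeR 4.0.16 (R 4.3.3), using filterByExpr with a minimum count of 10 and a minimum total of 15, TMM factors, robust quasi-likelihood tests (two-sided) and Benjamini-Hochberg adjustment over all genes tested, with a threshold of 0.05. Days were compared within a depot (8270, 9574 and 10043 genes in iBAT, iWAT and eWAT) and depots in 1 fit of 31 libraries (11041 genes), 15 comparisons in all. CPM use TMM-scaled totals of the depot, or of all libraries for comparisons between depots; marker sums use plain totals. Alternatives were DESeq2 1.42.0, limma voom (3.58.1), RLE factors, plain library size, no filter, the library score (log2 CPM with a prior count of 2), the label number as a block and each library left out; fits on 1 side of the score gap were chosen after seeing the data. Scripts were tested on simulated data. A library's name joins its depot and its number in the labels. Nothing in the labels says that libraries of a group came from separate mice, so p-values measure the spread between these samples. PCR duplicates carry no molecular identifiers, so the counts' depth alone overstates precision.

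The members and the lists of other complement, monocyte and macrophage, lymphocyte, dendritic cell, MHC class II, mast cell, skeletal muscle, brown adipocyte and epididymis genes were chosen with earlier results of these data known. Full statistics were given for members called in a comparison. The 2 uncalled members with the largest log2 change per comparison were given only in part. At day 0 the values left out were Cd84 (-2.65) and Lyz2 (-2.37) in iBAT against iWAT. Folr2 (-1.97) and Trem2 (-1.72) in iBAT against eWAT were also left out. Lyz2, Clec7a, Gpnmb, Msr1, Csf1r and Mpeg1 were among those left out in other comparisons. From other lists up to 3 called genes were named per comparison. Apoe, Fcgr3, Folr2, Cx3cr1 and Ccr2 in comparisons where this rule did not name them were chosen after their values were seen. So were C1qa and C1qb in the comparisons of day 4 changes, and C3ar1, C6 and Lyve1 in eWAT at day 4.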

Additional observations from a re-analysis of the deposited data

Results flagged for a closer look

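Of 84 sets of member levels in groups of 4 or more libraries, 3 had a single library far from the rest by Dixon's criterion, which chance meets in about 1 of 20 groups. Itgax in iBAT at day 2 was at 10.4 CPM in iBAT539 and at 2.90 to 3.74 CPM in the other 3 libraries. C1qc in iWAT at day 0 was at 12.1 CPM in iWAT522 against 3.26 to 4.76 CPM. Fcgr3 in iWAT at day 0 was at 35.9 CPM in iWAT518 against 14.8 to 17.8 CPM.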

How the results depend on the processing

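Of 233 alternative counts of called members, 212 stayed within 1.5 times the main count and 21 did not. Other than in fits with 1 library left out, those that moved were the iBAT comparison of days 2 and 0 with DESeq2 (1 call), iBAT against iWAT with DESeq2 (10), iBAT against eWAT with no filter (0), and iWAT against eWAT with plain library size (2) or no filter (1). With the label number as a replicate block, the counts became 5 for iBAT against iWAT, 0 for iBAT against eWAT and 1 for iWAT against eWAT. That 1 is Mpeg1 (adjusted p = 0.049 in edgeR), and the 4 members called without the block were lost. The labels do not say whether equal numbers in different depots mark the same mouse, and label numbers were not taken as pairs. Over 23 pairs of same-numbered libraries of different depots, the correlation of deviations ran from -0.552 to 0.42, above 0.1 in 7. The main axis within groups held 43.7 to 54.2% of the variance in a depot, so these correlations cannot decide whether the mice were the same. No numbers recur between days of a depot. Leaving out 1 library gave 1 to 6 calls for iBAT against iWAT, 0 to 1 for iBAT against eWAT, 0 to 5 for iWAT against eWAT, and 0 to 0 elsewhere. The Gpnmb estimate in eWAT at day 2 (0.85) became -0.02 with the score and -0.10 without eWAT538, and ran up to 2.6 without eWAT518. Of 778 alternative values of named members, 53 lost a call and 11 gained one. In eWAT at day 4 the members' median ran from 0.76 to 1.2 over the 13 alternatives, with 0 calls. Depth limits members with few counts, and in iBAT548 and iBAT539 low counts are incomplete; leaving out both changed no count of calls by over 1.5 times.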

Other observations

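Chemokines and genes of alternative activation were also measured. At day 0, 5 of 17 chemokine genes tested were called lower in iBAT than in iWAT, led by Ccl5, a T cell attractant (log2 difference -5.91, SE 0.90, adjusted p = 4.54e-05), Cxcl13, which guides B cells (-5.61, SE 1.07, adjusted p = 0.000503), and Cxcl16 (-2.86, SE 0.55, adjusted p = 0.000543), and these 3 were higher in iWAT than in eWAT (5.66, 5.03 and 1.81). In eWAT at day 4, 11 of 16 chemokine genes (median 0.61) and 8 of 8 alternative activation genes (median 0.68) had positive estimates, and 0 were called. Of 9 alternative activation genes tested at day 0, Il13ra1 (-1.97) and Retnla (-3.41) were lower in iBAT than in eWAT. Over all genes 5.21% were called lower in iBAT than in eWAT, 9.77% lower in iBAT than in iWAT and 5.02% higher in iWAT than in eWAT.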
